A study of Mus musculus with 6 samples.

Results

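Wide regions are the stretches of the autosomes over which the YAP1 peaks of the tumour libraries joined into 1 kb or more. Overlapping peaks of the 4 lists (1 bp or more in common) on chromosomes 1 to 19 were joined into merged regions. By this rule 460 of the 24698 merged regions (1.86%, 95% exact interval 1.70 to 2.04) had an end minus start of 1000 bp or more and are the members described here. The other 24238 regions are called narrower. A region counts as held by each library with a peak inside it. The members were chosen by their measured width, and width, sharing between lists and peak strength all come from the same peaks, so what follows describes the members and tests nothing that the choice had already used.

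All libraries came from tissue labelled MB of mice with the genotype fSMO-M2;hGFAPcre. The SmoM2 allele is a constitutively active form of Smoothened, the Hedgehog pathway's signal transducer, and Cre recombinase is driven by the human GFAP promoter. The titles give 2 female (SGf) and 2 male (SGm) libraries, numbered 1 and 2 in each sex, with no treatment, age or animal given, so the spread between libraries may be technical. For male 1 and female 2 the Sex tag contradicts both title and description, and the titles were followed.

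YAP1 is the co-activator held in check by the Hippo kinases MST and LATS, which by phosphorylation keep it out of the nucleus. It has no DNA-binding domain of its own and is known to reach chromatin through partners, above all the TEAD factors, often at enhancers and promoters where several factors bind side by side. In Hedgehog-driven medulloblastoma, which arises from cerebellar granule neuron precursors, YAP1 is known as a growth-promoting protein. A peak caller joins neighbouring enriched bases into 1 peak, so a wide peak can hold 1 strong source or several close ones, and the summit marks its highest point.

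The lists had 15855 (female 1), 16470 (female 2), 4091 (male 1) and 9359 (male 2) autosomal peaks. Read depth is unknown, because the lists carry no counts, and both the number and the width of called peaks depend on depth. Male 1, the shortest list, stands apart from the others in much of what follows, and values without it are given for several results. Positions are 1-based on mm9. No gene is named for any region, since no annotation or sequence of that build was used.

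The members were wide by a small margin and covered a disproportionate part of the peak territory. Their median width was 1136 bp, against 310 bp for narrower regions, with the central 50% of members between 1056 and 1279 bp and a maximum of 2307 bp. Of the 460, 135 reached 1250 bp, 37 reached 1500 bp and 4 reached 2000 bp. Together they spanned 553 kb, 5.88% of all bases under merged regions, and took in 2051 peaks. Just inside the threshold, 3 members were exactly 1000 bp wide, at chr4:147661765-147662764, chr11:59652776-59653775 and chr17:71824268-71825267, with fold enrichments from 2.45 to 6.61 across the lists that held them. Just outside it, 3 regions were 999 bp wide, at chr11:113472909-113473907, chr12:26549440-26550438 and chr13:48641273-48642271, with 2.21-fold to 6.94-fold. The threshold thus cuts through a continuous range of widths.

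Few members were wide in more than 1 library. A single peak of 1000 bp or more was present in 273 members, and the other 187 (40.7%) reached 1 kb only because peaks of different lists overlapped in a chain. Such peaks numbered 171 (female 1), 127 (female 2), 34 (male 2) and 7 (male 1). In 221 members 1 list alone had such a peak, in 40 members 2 lists did, in 10 members 3 lists did and in 2 members all 4 did. The median share of a member's length that the peaks of 1 list covered was 82.4% for female 1, 79.8% for female 2, 57.7% for male 2 and 34.9% for male 1. Leaving out a female list lowered the number of wide regions most: without female 1 there were 222 wide regions and without female 2 there were 257, against 442 without male 1 and 411 without male 2.

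Both members with a 1 kb peak in every list were also among the strongest. One, at chr19:40968406-40970422, was 2017 bp wide in female 1 and 1713 bp in female 2, with 1759 bp and 1382 bp in male 1 and 2. The other, at chr4:150481490-150482865, had peaks of 1268, 1013, 1258 and 1068 bp in female 1, female 2, male 1 and male 2. Its fold enrichments were 16.7, 12.6, 10.6 and 13 in the same order. In both, the 4 summits lay close together, within 85 bp on chromosome 19 and within 20 bp on chromosome 4. This pair was picked out after the values were seen.

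Most members were held by several libraries. Of the 460, 283 were held by all 4 (61.5%, 56.9 to 66.0), and over all merged regions the share was 8.02%. Another 158 members were held by 3 libraries, 18 by 2 and 1 by a single library, while 53.4% of narrower regions were held by a single one. Sharing rose step by step with width: all 4 libraries held 0 of the 7731 regions under 250 bp, 4.13% from 250 to 499 bp, 21.3% from 500 to 749 bp, 40.7% from 750 to 999 bp, 59.1% from 1000 to 1249 bp, 61.2% from 1250 to 1499 bp and 83.8% of the 37 regions of 1500 bp or more. Merging lengthens a region with every list that adds a peak, so this order is partly built into the rule. Male 1 set the count of fully shared members: its peaks reached 303 members (65.9%), against 427 (92.8%) for male 2, 455 (98.9%) for female 2 and 458 (99.6%) for female 1. With regions merged again without male 1, 410 of 442 wide regions (92.8%) were held by the 3 other libraries.

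**Figure D1:**
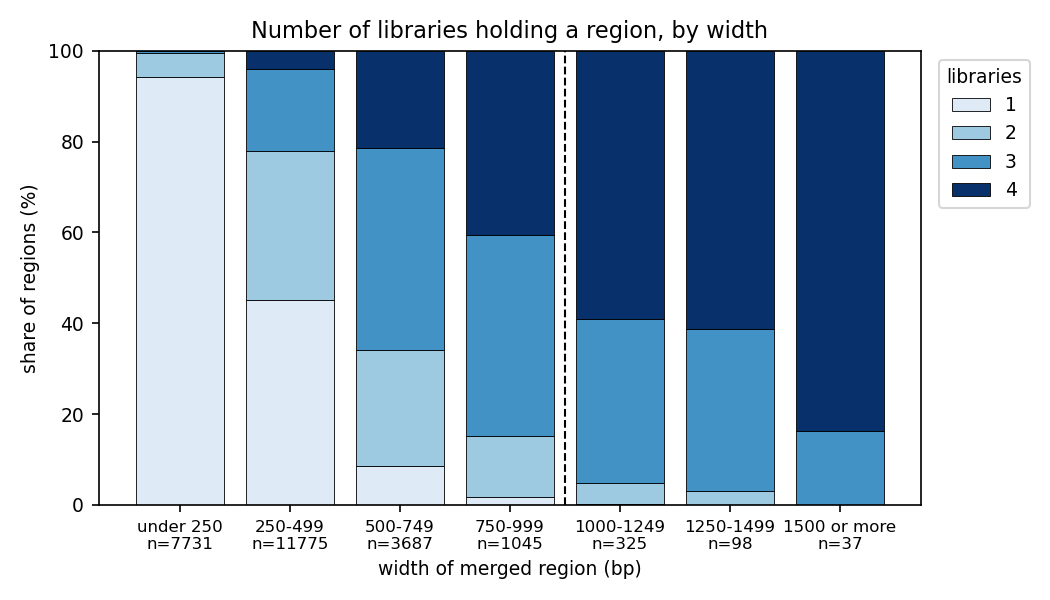
Share of merged regions (y axis, %) held by 1, 2, 3 or 4 libraries, by width of the region in bp (x axis), with the number of regions under each bar and a dashed line at the 1000 bp threshold. The share held by all 4 libraries goes from 0 in the narrowest class to 83.8% in the widest.

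Female and male libraries both held most members, and the longer female lists held more. Female libraries held 457 ± 2.12 members (SD, n = 2) and male libraries 365 ± 87.7 (SD, n = 2), a ratio of geometric means of 1.27. It was 1.51 between the libraries numbered 1 and 1.07 between those numbered 2. Both female libraries exceeded both male ones (two-sided exact permutation p = 0.33, the smallest that 2 against 2 can give), and no outcome of this design could reach 0.05. With every list cut to its 4091 best p-values the ratio was 1.08. Grouping by the Sex tag, which puts both libraries numbered 1 in one sex and both numbered 2 in the other, turned the ratio to 0.845 (exact permutation p = 1). As a share of all the regions a library held, the order was the opposite: members were 2.95% and 2.80% of the regions of female 1 and 2, and 7.62% and 4.69% of those of male 1 and 2. The shorter a list, the larger the part of it that lay in members.

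Members in both female and neither male library numbered 13 (2.83%), and 10.9% of all merged regions had that pattern. With 1 library left out the pattern needs only the lists that remain, so those counts cannot be set against the 13. They were 3 of 222 wide regions (female 1 left out), 5 of 257 (female 2), 27 of 442 (male 1) and 126 of 411 (male 2). The share over all merged regions was not computed with a library left out or at equal list length. No member was in both male and neither female library, a count of 0 of 460 that allows a share of up to 0.652% by a limit of 3 counts and up to 0.799% by the exact interval. Of all merged regions 0.0931% had that pattern. With the lists cut to equal length, 4 of 272 wide regions were in both female and neither male library. In both male and neither female library there were 3, so the contrast of 13 with 0 was not seen at equal list length. The widest of the 13 lay at chr2:124435490-124436854, with 1 peak in each female list, 851 and 1024 bp wide, at 3.31-fold in female 1 and 3.91-fold in female 2. Next in width were chr7:25291289-25292628 (2.97-fold and 3.13-fold in female 1 and 2), chr9:24955519-24956809 (5.40-fold and 3.55-fold), chr1:120284736-120285905 (4.24-fold and 4.17-fold) and chr5:32912853-32913981 (5.68-fold and 3.13-fold). All 5 lay well below the strongest members, the best of their ranks being 832nd of its list. The single member held by 1 library, at chr12:36882955-36884129, was 1 peak of 1175 bp in female 2 at 6.17-fold.

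The other patterns were uneven in size. The lists other than male 1 held 141 members together (30.7%), and 14.8% of narrower regions had that pattern. Those other than male 2 held 16 (3.48%), against 2.05% of narrower regions. Libraries numbered 1, with neither numbered 2, held 3 members, and 2% of all merged regions had that pattern. Libraries numbered 2, with neither numbered 1, held 1 member, against 6.49% of all merged regions. These 2 patterns are also the sex patterns by the Sex tag. Female 2 was absent from 5 members, of which chr15:39029559-39030805 had the highest fold: 6.42-fold over 1243 bp in female 1 and 4.06-fold over 310 bp in male 1. The 157 members without male 1 were weaker in the other lists than the 303 with it, with median folds of 3.81 against 4.65 in female 1, 4.08 against 4.70 in female 2 and 3.95 against 4.37 in male 2. One exception, singled out after its values were seen, was chr11:23155092-23156526. Its fold of 15.8 was the 15th highest of female 1, it stood at 6.77-fold in female 2 and 5.81-fold in male 2, and male 1 had no peak there.

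Lists that had taken no part in the choice also held wide regions more often than narrower ones. For this, regions were merged and measured from 3 lists and looked up in the fourth. Among the wide regions of the other 3 lists, female 1 had a peak in 220 of 222 (99.1%, 96.8 to 99.9), female 2 in 252 of 257 (98.1%, 95.5 to 99.4). For male 1 it was 285 of 442 (64.5%, 59.8 to 68.9), and for male 2, 378 of 411 (92.0%, 88.9 to 94.4). For regions of 750 to 999 bp the shares were 91.8%, 95.1%, 47.2% and 81.6%, and for regions under 500 bp they were 45.2%, 49.6%, 7.78% and 24.5%. The lookup gave the same order by width in each of the 4 lists. The intervals treat regions as independent and cover counting error only.

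A wider region offers more bases to overlap, so a window of fixed size was read as well: whether the left-out list had a summit within 200 bp of the strongest summit of the other 3. By that measure the wide regions reached 67.6% (61.0 to 73.7) in female 1 and 70.0% (64.0 to 75.6) in female 2, with 46.8% (42.1 to 51.6) and 69.1% (64.4 to 73.5) in male 1 and 2. Regions of 750 to 999 bp reached 71.7% (68.1 to 75.04), 77.0% (73.6 to 80.3), 38.6% (35.6 to 41.7) and 67.7% (64.6 to 70.7), and regions under 500 bp 41.6%, 45.5%, 7.25% and 23.3%. Wide regions were thus above the narrowest class in every list. Against the class next to them they were higher in male 1, and in the other 3 lists the intervals overlapped. Among regions in all 3 other lists, the strongest ones (mean fold percentile of 90 or more) had a summit of female 1 within 200 bp in 80.6% of 31 wide and 95% of 120 narrower regions. The wide share was also the lower one in female 2 (86.0% and 97.5%) and male 2 (88.3% and 92.3%), with overlapping intervals in each of these lists. In male 1 the order was the other way, with 82.4% of 68 wide and 64.9% of 305 narrower regions. In the bins below 90 the wide share stayed lower in both female lists and higher in male 1. From 50 to 75 it was 59.4% (46.4 to 71.5) against 86.0% (83.2 to 88.5) for narrower regions in female 1. The same shares were 64.4% (50.9 to 76.4) and 82.7% (79.9 to 85.3) in female 2, and 41.7% and 28.2% in male 1. In this bin the intervals did not overlap in these lists, and from 0 to 50 and 75 to 90 they did. In male 2 the wide share was higher from 0 to 50 (73.3% and 62.9%) and from 75 to 90 (82.5% and 78.0%), and lower from 50 to 75 (63.9% and 70.5%). At 90 or more, the lookup for any peak gave 100% and 97.5% in female 1, and 89.7% and 67.9% in male 1.

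**Figure D2:**
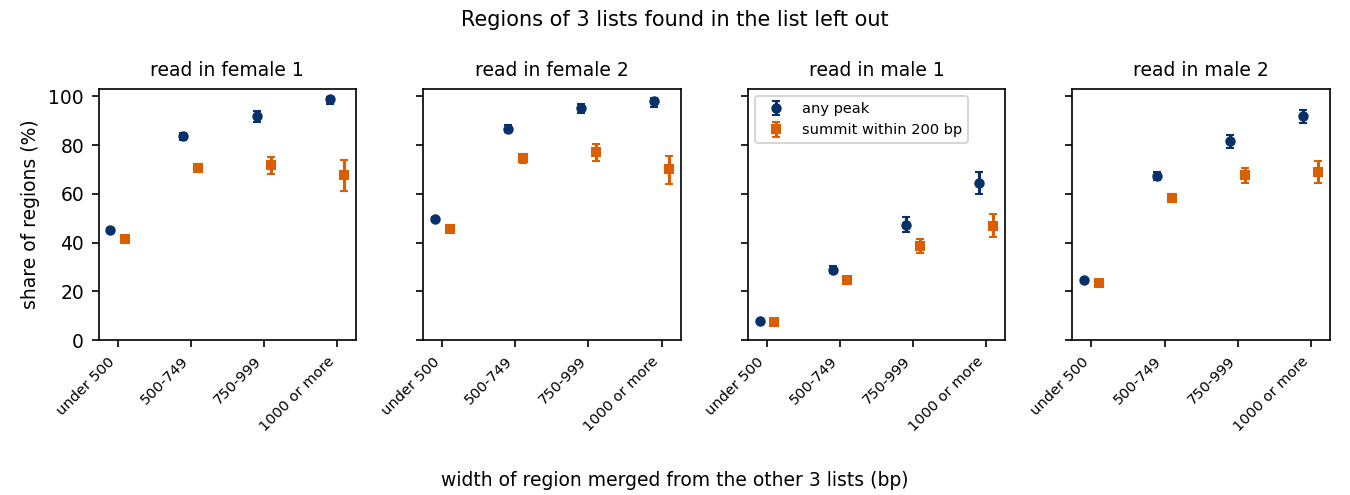
Share of regions merged from 3 lists (y axis, %) that had any peak (circles) or a summit within 200 bp of the strongest summit (squares) in the list left out, by width of the region in bp (x axis), 1 panel per list left out, with 95% exact intervals. For any peak the share is highest in the class of 1000 bp or more in every panel, while the squares in the female panels are lower there than from 750 to 999 bp, with overlapping intervals.

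Members tended to be strong peaks, with wide variation among them. Fold enrichment is the authors' value for a peak, and a member was given the fold of its strongest peak in each list. In female 1 the members ran from 1.82 to 33.0 with a median of 4.29, where the list's median was 3.62. The medians were 4.47 in female 2 (list 3.78), 3.79 in male 1 (list 3.63) and 4.16 in male 2 (list 3.80). On a scale from 0 to 100 within each list, the median member stood at 75.2 in female 1 and 74.1 in female 2, with 57.6 and 64.9 in male 1 and 2, and narrower regions stood near 50 in each. Narrower regions held by all 4 libraries stood at 76.9, 69.0, 46.0 and 58.1 in the same order, and members held by all 4 at 83.6, 80.3, 59.4 and 72.0, so part of the height of the members was shared by narrower regions found in every list. Ranked by p-value the median members stood higher, at 85.4, 84.1, 71.0 and 76.0 in the same order.

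The spread within the members was as plain as their centre. The strongest 10% of each list took in 30.8% of the members held in female 1 and 27.5% in female 2, with 23.1% and 19.7% in male 1 and 2. At the same time 28.4%, 27.0%, 40.9% and 34.2% of them lay below the median of their list. In male 1 the weakest 10% of the list held 10.6% of the members. Between the weakest and the strongest 10% of that list, each class of 10% held from 5.61% to 12.2%, with no steady rise. Width and fold were nearly unrelated among the members, with Spearman's rho between 0.02 and 0.11 over the 303 to 458 members of a list. These points share their libraries and, being peaks, their selection, and the values are given as a description. The 37 members of 1500 bp or more stood higher in each list. Their median fold percentiles were 87.3, 83.3, 74.7 and 78.3 in female 1, female 2, male 1 and male 2. From 1000 to 1249 bp the medians were 75.6, 73.4, 57.9 and 62.8, and from 1250 to 1499 bp 72.3, 70.0, 49.0 and 61.1.

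**Figure D3:**
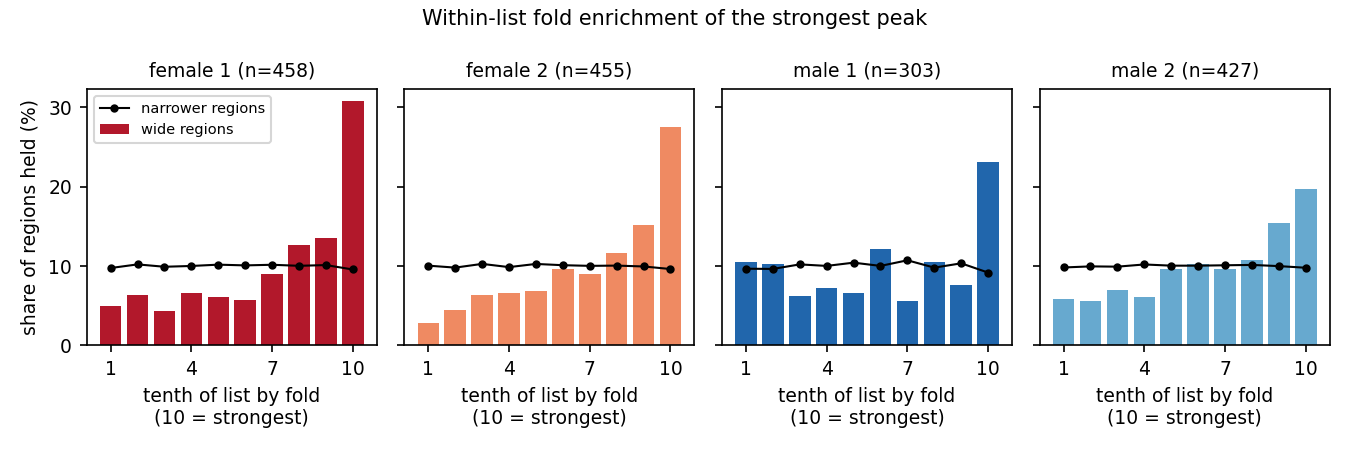
Share of regions held (y axis, %) whose strongest peak falls in each of 10 equal classes of a library's list by fold enrichment (x axis, 10 is the strongest), for wide regions (bars) and narrower regions (line), 1 panel per library. The strongest class holds 30.8%, 27.5%, 23.1% and 19.7% of the wide regions in female 1, female 2, male 1 and male 2, and the narrower regions stay near 10% throughout.

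In all, 9 members ranked within the first 100 peaks by fold in every list, compared with 7 narrower regions held by all 4 libraries. The pair of neighbours on chromosome 19 led them. The member at chr19:40947319-40948622 had 1 peak per list, of 1304, 1148, 951 and 1045 bp in female 1, female 2, male 1 and male 2, and its 4 summits lay within 45 bp. Its neighbour at chr19:40968406-40970422 was described above. The pair spanned 23.1 kb, with 1 narrower region between them.

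Of the others with the best worst rank, chr16:35021726-35022752 had fold enrichments of 14.3, 19.9, 6.39 and 13.5 in female 1, female 2, male 1 and male 2. Peaks at chr3:157196609-157198182 were broad in all lists, at 1532, 1251, 949 and 1095 bp, with folds of 13.6, 13.1, 6.29 and 8.78. A second chromosome 3 member, chr3:146184115-146185157, had folds of 12.8, 8.21, 7.02 and 9.23, and it ranked 19th in female 1 and 141st in female 2. In each of these 3 members the fold of male 1 was the lowest of the 4, which compares ratios of separately scaled lists and was not tested. The remaining 5 of the 10, at chr1:82720824-82721839, chr4:150481490-150482865, chr7:69563916-69565522, chr13:18035962-18037135 and chr1:173340676-173341697, had summit spreads between 20 and 49 bp. All 10 best-ranked members had their 4 strongest summits within 132 bp, although they were 1016 to 2017 bp wide.

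Summits coincided in some members and lay far apart in others, over a continuous range. In the 283 members held by all 4 libraries, the distance between the outermost of the 4 strongest summits had a median of 341 bp, with the central 50% between 120 and 601 bp and a maximum of 1507 bp. In the 1697 narrower regions held by all 4, it had a median of 120 bp. All 4 summits fell within 200 bp in 109 members (38.5%, 32.8 to 44.5) and in 73.3% of those narrower regions. They were over 500 bp apart in 101 members (35.7%) and in 2.00% of the narrower regions, which have less room for such a distance. The narrower regions closest in width, 425 of 750 to 999 bp held by all 4, lay between, with a median of 178 bp. Their summits fell within 200 bp in 53.9% and were over 500 bp apart in 7.29%. With male 1 left out, the 3 remaining summits fell within 200 bp in 185 of 410 fully shared wide regions, and with female 1 left out in 57 of 148.

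Where summits coincided, the peaks were stronger. The 109 members with summits within 200 bp had median folds of 5.61 in female 1 and 5.64 in female 2, with 4.33 and 4.72 in male 1 and 2. In the other 174 the medians were 4.33, 4.44, 3.68 and 4.13. Of the first 100 peaks by fold, members with coinciding summits took 30 in female 1 and 17 in female 2, with 23 and 21 in male 1 and 2, and members with scattered summits took 7, 3, 5 and 3. Their widths were similar, with medians of 1120 and 1189 bp. Over bins of mean fold percentile, 27.0% of 63 members below 50 had summits within 200 bp, then 29.6%, 43.1% and, at 90 or more, 66.7% of 54. Narrower regions rose in the same way, from 68.2% to 90.5%, and were above the members in each bin.

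**Figure D4:**
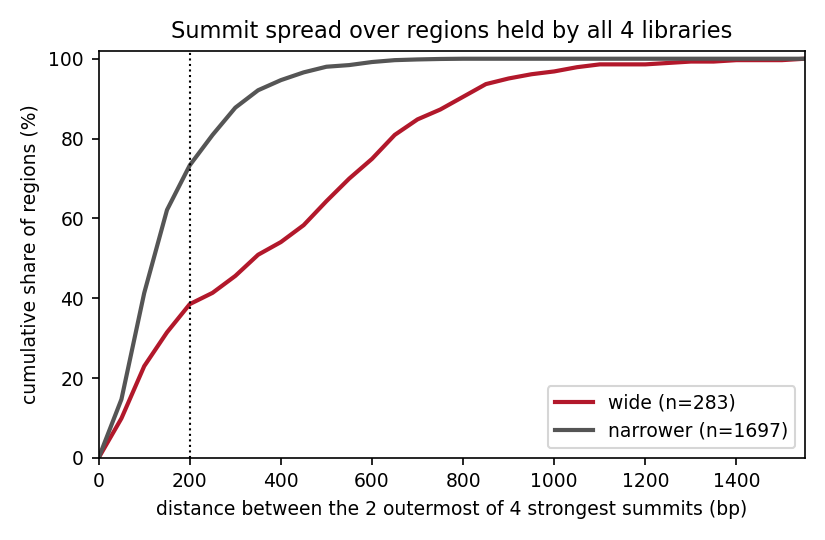
Cumulative share of regions held by all 4 libraries (y axis, %) by the distance in bp between the 2 outermost of the 4 strongest summits (x axis), for wide and narrower regions, with a dotted line at 200 bp. At that line the wide curve is at 38.5% and the narrower curve at 73.3%.

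Scatter of summits was present in every pair of libraries. Between any 2 lists the median distance of the strongest summits in these members was from 75 bp (female 2 and male 2) to 132 bp (male 1 and male 2), and 85 bp for female 1 and female 2. In narrower regions held by all 4 it was from 49 to 58 bp. The pairs with male 1 had the lowest shares of members within 200 bp, 64.7% with female 1, 60.4% with female 2 and 60.8% with male 2, against 66.1% to 68.6% in the other pairs. The strongest summit lay in the middle 1 of 3 equal parts of a member in 44.2% to 48.6% of cases, depending on the list, and in 58.7% to 64.7% of narrower regions. Members were therefore less centred, with summits at the median close to the midpoint (49.3% to 53.2% of the way along).

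Several peaks of 1 list within a member were common. At least 1 list had more than 1 peak in 261 members (56.7%, 52.1 to 61.3) and in 1.96% of narrower regions, or 8.37% of the narrower regions held by all 4. Narrower regions, with a median width of 310 bp and a minimum of 173 bp, have less room for several peaks of 1 list. Chaining such peaks also widens a region, so this contrast is partly built into the rule. The number of such wide regions was 99 of 222 without female 1 and 133 of 257 without female 2. Without male 1 it was 219 of 442, and without male 2, 191 of 411. It was lower with fewer peaks: 111 of 360 wide regions at a −log10 q of at least 5, and 75 of 272 with the lists cut to equal length. By list, more than 1 peak lay in 24.7% of the members held in female 1 and 21.8% in female 2, and in 19.8% and 26.7% of those in male 1 and 2. The most in any list was 3. Neighbouring summits of 1 list were a median of 583 bp apart in female 1 and 609 bp in female 2, with 543 bp and 584 bp in male 1 and 2. In 255 members 1 list had several peaks where another had a single one. That single peak could be of any width. In female 1 it spanned all 2133 bp of chr10:41996066-41998198, while in male 1 it was 185 bp wide at chr2:30650019-30652325. Only 6 members had several peaks in every list that held them, and chr10:17441563-17443509 was the 1 of these held by all 4, with 2 peaks per list. There the strongest summits of female 1 and 2 lay 597 and 625 bp from the left end, and those of male 1 and 2 at 1476 and 1428 bp.

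The 5 widest members show these layouts. The widest, chr2:30650019-30652325, was 2307 bp long and joined 9 peaks, none wider than 1120 bp, with 3 peaks in each of the female lists. Its folds were 4.15, 3.26, 3.66 and 4.70 in female 1, female 2, male 1 and male 2, so in this member great width came with modest enrichment. In chr1:88421535-88423836, 2302 bp long, female 2 and male 2 each had 1 peak, of 2178 and 2127 bp, while female 1 and male 1 each had 3, and the strongest summits still lay within 77 bp. Folds there were 5.55 and 4.35 in female 1 and male 1, and 8.55 and 7.13 in female 2 and male 2. The third, chr10:41996066-41998198, was 1 peak of 2133 bp in female 1 and 3 peaks in male 1. Its strongest summit was 1843 bp from the left end in female 1, 1847 bp in female 2, 1703 bp in male 2 and 340 bp in male 1, the widest scatter of all members. The fourth was the strong chromosome 19 member, and the fifth, chr13:23852750-23854737, had 2 peaks in each of 3 lists and none in male 1.

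Among the 5 members with the largest summit distances, chr5:134789336-134791167 had the highest folds, at 6.37, 6.95, 5.61 and 6.64-fold in female 1, female 2, male 1 and male 2. Its summit lay 335 to 449 bp from the left end in 3 lists and at 1632 bp in female 2. At chr12:8505581-8507265 the lists split evenly, with the strongest summit at 157 bp in female 1 and 422 bp in male 1, and at 1534 bp in female 2 and 1545 bp in male 2. Summits in chr5:125620563-125622222 ranged from 416 bp in male 1 to 1499 bp in male 2. In chr12:8505581-8507265, female 2 and both male lists had a peak at each end, and the higher of them was not at the same end in every list.

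**Figure D5:**
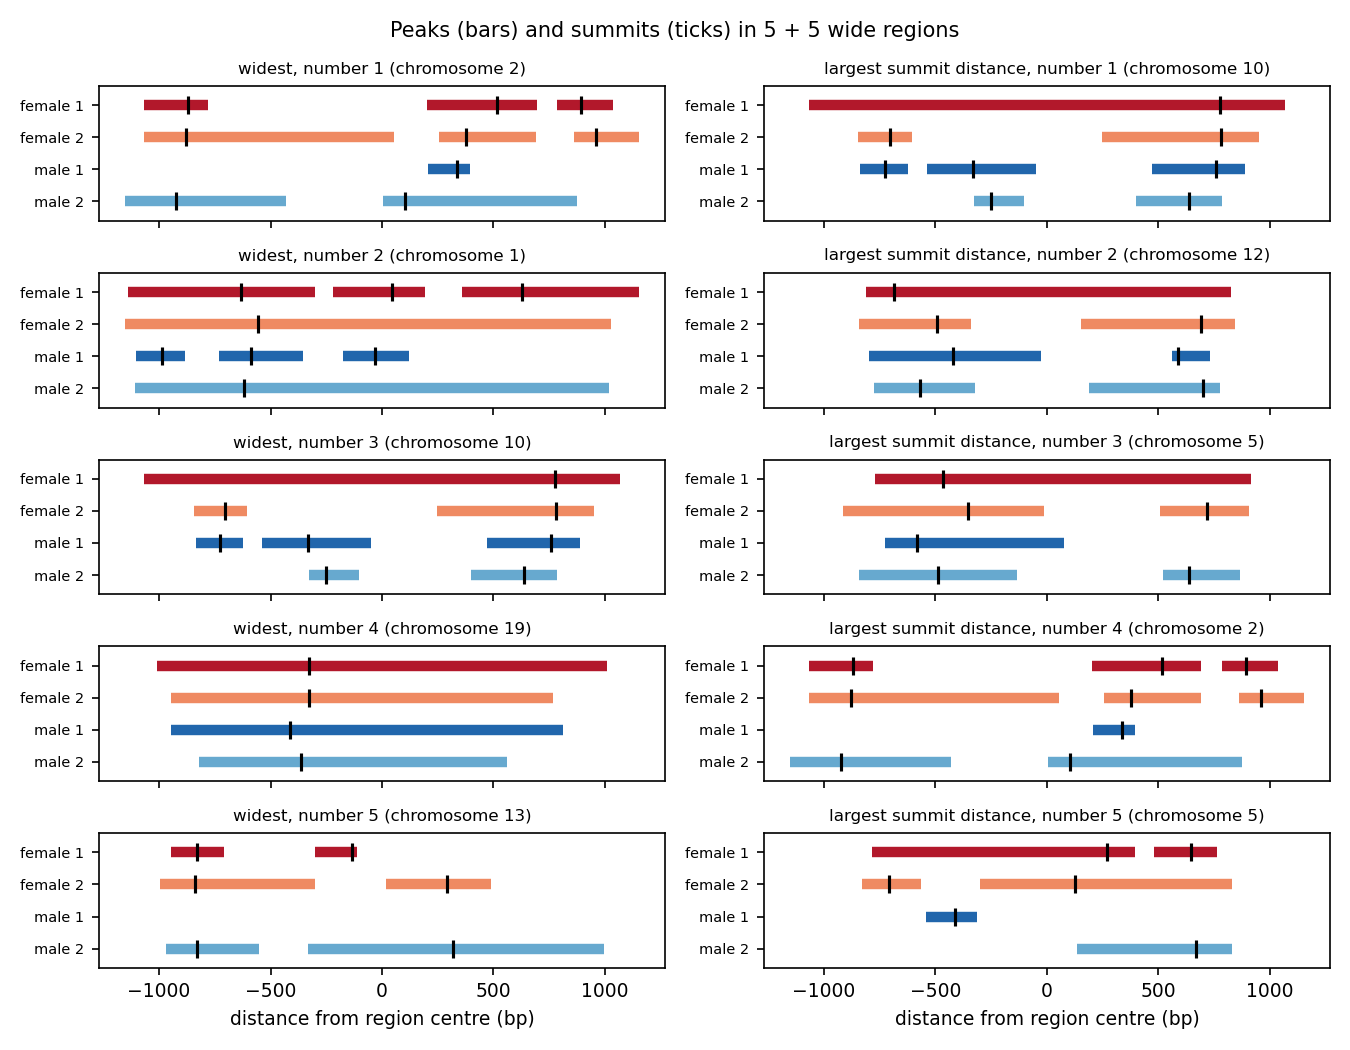
Peaks (bars) and their summits (ticks) of the 4 libraries in the 5 widest members (left) and the 5 members with the largest distance between strongest summits (right), by distance in bp from the centre of the region (x axis), 1 row per library. One long bar in a library often lies over several short bars in another, and the chromosome 19 member has 1 bar per library with summits within 85 bp.

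Neighbours of the members lay at about the same distance as those of narrower regions. The nearest other region lay a median of 10142 bp from a member and 9723 bp from a narrower region, and within 10 kb for 229 members (49.8%, 45.1 to 54.4) and 50.5% of narrower ones. Without female 1, 96 of 222 wide regions had such a neighbour, and without female 2, 124 of 257. Without male 1 it was 211 of 442, and without male 2, 197 of 411. With other settings the share moved, from 76 of 272 at equal list length to 25 of 37 for widths from 1500 bp. Very close neighbours were somewhat more frequent, with 25.2% (21.3 to 29.4) of members and 20.5% of narrower regions having another region within 500 bp. The neighbours within 10 kb had a median width of 328 bp, 48.5% were held by a single library and 12.2% (8.28 to 17.2) by all 4, against 313 bp, 53.5% and 7.58% for the neighbours of narrower regions. A window of 100 kb on either side of the centre held a median of 5 other regions for members and 4 for narrower ones.

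Members lay beside another member about as often as narrower regions did. Where the nearest region was within 10 kb, it was a member for 5 of 229 members (2.18%, 0.713 to 5.02) and for 1.84% of narrower regions. The nearest other member was a median of 876691 bp away, and 87 members (18.9%) had one within 100 kb, in 36 runs. These distances were not set against those of narrower regions or of random places, so clustering of members was not tested. Only 5 of the runs had more than 2 members. The closest pair, 320 bp apart, was chr6:86474765-86475927 and chr6:86476248-86477907, at 4.59-fold and 8.21-fold in female 1 and 3.68-fold and 6.07-fold in male 1.

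Chromosome 13 carried the densest runs. From 23608961 to 23854737, 9 of the 34 merged regions were wide, and from 21807582 to 21926009, 5 of 15 were. The 3 densest windows of 100 kb, with 4 members each, all lay in these 2 runs. The mouse is known to carry its largest cluster of histone genes on this chromosome; whether the runs lie in it was not analysed here. In the 2 runs together 28.6% of regions were wide, and on chromosome 13 outside them 2.11%, against 1.86% over all autosomes. The runs begin and end at members and were picked as the densest, so a high share inside them is built into the choice. Enrichment in the 14 members was modest, with median folds of 3.40 and 3.54 in female 1 and 2, medians of 4.07 and 3.75 in male 1 and 2, and no value above 5.81. Male 1 held 7 of the 14 and each other list held all 14.

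Other runs had fewer members. A run of 5 on chromosome 8, from 122824129 to 123046091, lay among 61 merged regions, and male 2 ranged there from 2.48-fold to 8.03-fold. Runs of 3 lay on chromosome 3 from 96023245 to 96073923, with folds from 2.70 to 3.57 in female 1 and from 4.42 to 5.51 in male 2, and on chromosome 1 from 88338733 to 88423836, which ends in the 2302 bp member and was held by all 4 libraries throughout. By chromosome, the share of regions that were wide was highest on 13 (3.29%, 2.32 to 4.53) and 19 (3.02%, 1.86 to 4.63) and lowest on 12 (1.00%, 0.481 to 1.83). Per 10 Mb, chromosome 19 had 3.26 members, 11 had 3.04 and 13 had 2.99, and chromosome 12 had 0.825.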

How the data were processed

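YAP1 ChIP-seq was done by a service company on flash-frozen tumours and sequenced on an Illumina NextSeq 500, per the labels' protocols. Per the submitters' processing notes, which state no roles, the tools were BWA and HOMER 4.11 and the build mm9. What called the peaks, at which threshold and against which control is not given in the sources used here. Of the 6 samples, 2 pooled inputs were not analysed here.

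The authors deposited 1 narrowPeak list per library, with a fold enrichment (a ratio whose background is not stated), a −log10 p-value, a −log10 q-value, a score and a summit for each peak. The score in the deposited lists equals 10 times the −log10 q-value with decimals dropped, in 99.976% of female 2's peaks and 100% elsewhere (exact match). The lowest deposited −log10 q was 1.30 to 1.35. Folds only describe and rank peaks inside their own list.

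Groups and numbers come from the titles. Peaks on chromosomes 1 to 19 were merged at 1 bp overlap and widths taken as end minus start. Shares have exact Clopper-Pearson 95% intervals. Numbers per sex were compared with an exact permutation test over 6 splits. Named regions were the 5 widest, the 10 held by all 4 libraries with the best worst rank, the 5 widest of each sex's own, those held by 1 library, the 3 on each side of the threshold, the 3 densest 100 kb windows and the 5 with the largest summit distance; others are named as seen afterwards. The members and rules were chosen with earlier results of these data known. Planned motif, promoter and gene-list descriptions needed mm9 sequence and annotation, not used here. Merging was tested on simulated data. Python 3.11.15, pandas 2.3.3, numpy 2.4.6, scipy 1.17.1 and matplotlib 3.10.9 were used.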

Additional observations from a re-analysis of the deposited data

Results flagged for a closer look

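Outside chromosomes 1 to 19, which the rule kept, merging gave 5 regions of 1000 bp or more on the X chromosome. They were 1.09% of the 460 merged regions on X, against 1.86% on the autosomes. The widest lay on X from 12857098 to 12858593 and was held by all 4 libraries, as was the one from 71211743 to 71213096, with folds from 3.49 to 6.65 and from 4.17 to 5.89. The region from 20194173 to 20195383 was in both female lists and male 1. Those from 100676773 to 100677830 and from 148667303 to 148668435 were in both female and neither male list. Of all merged autosomal regions 10.9% had that pattern, and its share over all X regions was not computed. The male lists were the shorter ones, and a sex difference on X was not tested. None of the 23 merged regions on Y was that wide, and 1 of 42 on unplaced contigs was.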

How the results depend on the processing

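The number of wide regions changed with the width threshold and with which peaks entered. There were 1171 at 800 bp, 168 at 1200 bp, 37 at 1500 bp, 272 with lists cut to equal length on p-values and 273 when a single peak had to reach 1000 bp. All 4 libraries held 604 of them at 800 bp (51.6%), 114 at 1200 bp (67.9%), 31 at 1500 bp (83.8%), 134 at equal length (49.3%), 187 with a single wide peak (68.5%) and 138 (38.3%) at −log10 q of at least 5. Fewer peaks enter the last and the equal-length setting by construction. Of the regions held by all 4, the strongest summits were within 200 bp in 284 of 604 at 800 bp and 34 of 114 at 1200 bp. They were in 12 of 31 at 1500 bp and in 72 of 138 at −log10 q of at least 5. Another region lay within 10 kb of 563 of 1171 wide regions at 800 bp, 94 of 168 at 1200 bp and 25 of 37 at 1500 bp. It did so for 135 of 360 at −log10 q of at least 5, 76 of 272 at equal length and 123 of 273 with a single wide peak. The share with a near neighbour thus moved with the setting, and narrower regions were not recounted. The median member's mean fold percentile, 61.4, was 52.9 at equal length and 76.0 at 1500 bp. With 50 or 100 bp of overlap required there were 438 or 420 wide regions, and with gaps of 100 bp bridged 568.

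With each library left out, wide regions numbered 222 to 442, those held by all remaining libraries 148 to 410 (66.7% to 92.8%), those with summits within 200 bp 57 to 185 and those with a neighbour within 10 kb 96 to 211. The fold percentile was 64.7 to 65.8 and the female to male ratio 1.07 to 1.44. Same-numbered libraries share a code in their descriptions whose meaning is not given, and lists without counts allow no check of whether they vary together. Under a replicate block by number the ratio remained 1.27 (exact sign flips over 2 pairs, p = 0.5, their minimum), and no call changed. Grouping by the Sex tag instead reversed the ratio to 0.845 (exact permutation p = 1). The lookup in a left-out list, whose alternatives were added after seeing the data, averaged 88.4% over the 4 lists. In the 8 settings run this average ranged from 75.9%, with lists of equal length, to 95.9% for widths from 1500 bp. Keeping only peaks whose −log10 q reached 5 lowered it to 76.9%. All 8 values lay within the spread between lists. That spread was wide, with male 1 at 64.5% and the others from 92.0% to 99.1%, so it could not show that the average held steady. The motif window was not run. Read depth, which limits peak number and width, is unknown for all 4 lists.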
